A study of Mus musculus with 32 samples.

Results

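Genes that answer to canonical Wnt signalling, Axin2, Nkd1, Nkd2, Sp5, Sp8, Znrf3, Rnf43, Tnfrsf19, Dact1 and Lef1, were followed in mouse cells induced to presomitic mesoderm (PSM, the tissue from which somites form). They were taken by symbol from the deposited count table, which held all 10 among its 21886 genes. All 10 passed the filter on low values, as did 11772 genes in all. Their products act inside the cell or at its membrane, in contrast to the secreted Wnt antagonists: Znrf3, Rnf43 and Tnfrsf19 encode membrane proteins.

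The cells were epiblast stem cells carrying a luciferase reporter of Hes7, a Notch pathway repressor that cycles in the PSM, and the labels name a single reporter line built on AES0204, without saying whether it is 1 clone. Stem cells were maintained with Activin A, bFGF and IWR-1-endo (2.5 µM, a tankyrase inhibitor that holds canonical Wnt signalling down). After a night with Activin A, bFGF and the ROCK inhibitor Y27632, without IWR-1-endo, they received for 30 h SB431542 (10 µM, an inhibitor of Activin and Nodal receptors), LDN193189 (250 nM, an inhibitor of BMP receptors), CHIR99021 (10 µM, an inhibitor of the kinase GSK3) and bFGF (20 ng/ml), after which CHIR99021 was lowered to 1 µM with the other agents kept. Both time courses, Ex4 and Ex5, shared these conditions, without a group that lacked CHIR99021. Separate dishes were frozen at 16 labelled times from 155 to 405 min in Ex4 and at 16 from 165 to 425 min in Ex5, with 1 library per time. What event the labelled minutes count from is not given in the sources used here.

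Canonical Wnt signalling keeps β-catenin from being destroyed by a complex of Axin, APC, GSK3 and casein kinase, and β-catenin then activates genes in the nucleus through TCF/LEF factors. CHIR99021 inhibits GSK3 directly and so acts below the Wnt receptor. Several target genes feed back on the pathway, and in the embryonic mouse tail Axin2 is known to cycle out of phase with the Notch clock genes while Wnt3a from the tail bud keeps PSM cells immature.

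Levels are given as CPM, that is, reads relative to the scaled size of the library. Libraries held 19.3 to 29.5 M counts in Ex4 and 16.1 to 28.6 M in Ex5. All 10 listed PSM markers were detected, at a summed 3059 to 3757 CPM in Ex4 and 3670 to 4307 in Ex5. Of 8 markers of anterior PSM and somites, Mesp2, Ripply2, Tcf15 and Uncx were under 1 CPM and the summed list reached 11.5 CPM in Ex4 and 14.9 in Ex5. The first and second Ex5 libraries (165 and 180 min) correlated least with the rest, and results that changed without them are given with both values. With 1 library per time, the spread behind each test is that of the libraries around a fitted curve. In bulk samples, fewer cells of a type and less RNA per cell cannot be told apart.

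Hes7 set the clock phase. Its lowest and highest levels were 123 and 284 CPM for Ex4 and 152 and 437 CPM for Ex5, and a common period of 135 min (95% interval 129 to 141) described it, its 2 fitted maxima falling at 212.4 and 347.4 min for Ex4, and for Ex5 at 237.2 and 372.2 min. The courses thus spanned 1.85 and 1.93 cycles. Each gene was fitted with a level and a straight line per course plus a cosine of this phase. Its rhythm is thus given as a peak-to-trough fold and as minutes from the Hes7 peak, negative values being earlier. As the cycle repeats, a peak far before that of Hes7 lies close to a peak far after it.

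The members that passed the rhythm test of edgeR's quasi-likelihood model (adjusted p under 0.05, Benjamini-Hochberg over all tested genes) were Axin2, a scaffold of the destruction complex and a feedback inhibitor, Sp8, a zinc-finger transcription factor, and Tnfrsf19, a receptor of the tumour necrosis factor family. That is 3 of 10, beside 1.32% of all tested genes. At an unadjusted p under 0.05 it was 7 of 10, beside 13.0% of all. Their cycles were shallow, 1.136- to 1.19-fold, against 2.01-fold for Hes7, and their fitted peaks came before the Hes7 peak. The median peak-to-trough fold was 1.12 over the 10 members and 1.05 over all genes.

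The regions upstream of these 3 genes, and of Sp5, which passed the test in Ex5 alone, are shown because TCF/LEF factors bind DNA at CTTTGAT. Windows from 250 bases before to 50 bases after a transcript start came from RefSeq (GRCm38.p6, the assembly behind mm10), which gave 16 windows for 9 members. Searched on both strands, CTTTGAT occurred in 2 of the 16 windows, those of Sp5 and Tnfrsf19 shown here, and in 3.73% of 32851 windows of the same length. The shorter CTTTGA, which every CTTTGAT contains, occurred in 4 of 16, of Lef1, Sp5, Sp8 and Tnfrsf19, and in 16% of all. Only the 250 bases before the start are printed, 5′ to 3′ on the gene's strand, with CTTTGA in capitals (TCAAAG where it lies on the other strand).
Axin2 (chr11:108920099-108920348, plus strand): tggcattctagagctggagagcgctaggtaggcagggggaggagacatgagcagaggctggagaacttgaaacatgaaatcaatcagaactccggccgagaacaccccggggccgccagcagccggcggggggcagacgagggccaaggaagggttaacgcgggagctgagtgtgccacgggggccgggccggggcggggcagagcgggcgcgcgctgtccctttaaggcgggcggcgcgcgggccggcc
Sp8 (chr12:118846983-118847232, plus strand): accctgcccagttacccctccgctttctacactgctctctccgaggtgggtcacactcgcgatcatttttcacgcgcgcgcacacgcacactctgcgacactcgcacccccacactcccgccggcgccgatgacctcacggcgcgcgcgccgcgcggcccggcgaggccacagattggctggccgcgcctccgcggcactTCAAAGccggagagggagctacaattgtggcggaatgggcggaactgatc
Sp5 (chr2:70474673-70474922, plus strand): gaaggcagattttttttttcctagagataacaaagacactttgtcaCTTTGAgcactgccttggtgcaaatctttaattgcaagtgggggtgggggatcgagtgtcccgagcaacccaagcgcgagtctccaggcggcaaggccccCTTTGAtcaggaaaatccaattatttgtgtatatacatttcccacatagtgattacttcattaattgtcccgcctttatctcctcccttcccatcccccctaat
Tnfrsf19 (chr14:61037988-61038237, minus strand): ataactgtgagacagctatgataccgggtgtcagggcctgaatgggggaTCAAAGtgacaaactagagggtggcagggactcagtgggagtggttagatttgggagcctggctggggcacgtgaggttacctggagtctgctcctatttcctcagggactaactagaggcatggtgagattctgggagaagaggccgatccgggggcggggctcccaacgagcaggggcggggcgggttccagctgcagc
The Axin2 stretch, with a GC content of 69.2%, holds no CTTTGA. In Sp8 the match begins 50 bases before this start, which lies inside the annotated gene; the windows of the other 2 Sp8 starts hold none. Sp5 has matches 204 and 104 bases before its start, and Tnfrsf19 has 1 at 201 bases before a start inside its gene. The window of the other Tnfrsf19 start, which is not shown and lies upstream of the annotated gene, holds none. A match is only a run of letters, and these data hold no measurement of binding.

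All 10 genes are protein coding in GENCODE M21 and none overlaps another coding gene. Noncoding or pseudogene models overlap 7 of them, antisense Gm11670 at Axin2 and Gm43352 at Lef1 among them, and for the counting no strand setting is known here; those 7 may share reads with them. Sp5, Sp8 and Znrf3 have no such overlap.

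Axin2 (mm10 chr11:108920349-108950783) lay between 228 CPM at 215 min and 297 CPM at 292 min in Ex4, with a median of 270. In Ex5 it lay between 170 CPM at 240 min and 222 CPM at 165 min, with a median of 199. Every Ex4 library was above every Ex5 library, and in each course the lowest library was the one nearest the first Hes7 peak. Over both courses Axin2 cycled 1.145-fold (log2 0.19 ± 0.04 SE, n = 32; adjusted p = 0.0110 by edgeR's quasi-likelihood test), with its peak 54.4 ± 4.38 min before that of Hes7.

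The Axin2 dip was clear at only the first of the 2 Hes7 peaks. From the first Hes7 peak to the following trough, Axin2 went from 228 to 285 CPM in the Ex4 libraries and from 170 to 211 CPM in those of Ex5. At the library nearest the second Hes7 peak it stood at 278 CPM in Ex4 and 199 CPM in Ex5, so that the second descent was smaller in both courses. A free fit to Axin2 alone gave a period of 170 min (95% interval 152 to 214), which does not include the 135 min of Hes7. The fit by course gave 1.12-fold at -59.5 ± 7.19 min in Ex4 (adjusted p = 0.350) and 1.18-fold at -51.2 ± 4.71 min in Ex5 (adjusted p = 0.147), and Axin2 passed in neither course alone. It passed with each single library left out (adjusted p at most 0.0470), as did Sp8 and Tnfrsf19, and missed the threshold with a period of 120 min (adjusted p = 0.190) and without the time line (0.0652).

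Sp8 (mm10 chr12:118846329-118852576), which acts in Wnt-dependent patterning of limb and tail, kept a narrow range in Ex4, from 67.3 CPM at 200 min over a median of 75.3 to 81.9 CPM at 245 min. In Ex5 it ran from 48.2 CPM at 240 min over a median of 56.4 to 77.6 CPM at 180 min. The courses overlapped only through the first 3 Ex5 libraries, at 165, 180 and 195 min. Sp8 cycled 1.19-fold (log2 0.26 ± 0.05, n = 32; adjusted p = 0.00605, edgeR's quasi-likelihood test), peaking 60.3 ± 4.36 min before Hes7.

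In Ex5, Sp8 stood at 77.02 CPM at the Hes7 trough of 165 min, at 48.2 at the peak, at 64.9 at the next trough and at 56.8 near the second peak. In Ex4 the values at peak, trough and peak were 67.7, 77.8 and 71.8 CPM. The fitted peak lay at -67.0 ± 6.55 min in Ex4 and at -56.9 ± 4.5 min in Ex5. That of Ex4 was opposite to Hes7, so before and after cannot be told apart there. The fitted swing was 1.12-fold in Ex4 and 1.29-fold in Ex5. After removal of level and line, Sp8 in Ex5 stood at -0.341 on the log2 scale at the first Hes7 peak. Near the second it stood at 0.100, so the Ex5 dip was clear at only the first peak. In Ex4 the values at the 2 peaks were -0.156 and -0.0646. The test of the difference gave an unadjusted p of 0.0715, and neither course passed alone (adjusted p = 0.262 in Ex4 and 0.0693 in Ex5). Sp8 by itself gave a period of 153 min (139 to 182), again longer than that of Hes7, and it missed the threshold at a period of 120 min (adjusted p = 0.115).

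Tnfrsf19, also called Troy and known as a Wnt target, lies at mm10 chr14:60963875-61046490. It ran from 190.5 CPM at 230 min over a median of 226 to 271 CPM at 405 min in Ex4. In Ex5 it ran from 172 CPM at 165 min over a median of 199 to 224.5 CPM at 365 min. The courses overlapped, both rose, and the cycle rode on that rise. Around the line it cycled 1.136-fold (log2 0.18 ± 0.03, n = 32; adjusted p = 0.000276, edgeR's quasi-likelihood test), and the peak came 38.9 ± 3.13 min before that of Hes7.

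Tnfrsf19 was the only one of the 3 whose own period, 137 min (128 to 147), included that of Hes7. It passed in Ex5 alone, at 1.16-fold and -32.6 ± 4.02 min (adjusted p = 0.0462), and not in Ex4 alone, at 1.12-fold and -47.8 ± 4.45 min (adjusted p = 0.0828). The test of the difference between the courses gave an unadjusted p of 0.0467, which did not pass adjustment. Without the time line Tnfrsf19 was not called (log2 0.05, adjusted p = 0.863), nor with a period of 180 min (adjusted p = 0.103).

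Sp5, a transcription factor of the same family as Sp8 that lies at mm10 chr2:70474923-70477729, ran from 139 CPM at 405 min over a median of 157 to 184 CPM at 260 min in Ex4. In Ex5 it ran from 113 CPM at 405 min over a median of 135 to 179 CPM at 165 min. The courses overlapped. Over both, its fitted swing of 1.15-fold peaked 66.0 ± 5.73 min after Hes7, close to the opposite side of the cycle, and missed the threshold (log2 0.20 ± 0.05, adjusted p = 0.0759).

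Sp5 passed in Ex5 alone, at 1.25-fold and 67.2 ± 3.81 min (adjusted p = 0.00836, edgeR's quasi-likelihood test, 16 libraries). The Ex5 libraries nearest trough, peak, trough and peak of Hes7 held 178.7, 118.2, 159.1 and 121.0 CPM. Both peak libraries were thus below both trough libraries, on a falling line. After removal of level and line they stood at -0.269 and -0.0733 on the log2 scale, a smaller dip at the second peak. The lowest Ex5 level, 112.7 CPM (-0.124 after that removal), came later, at 405 min. In Ex4 the fold was 1.065 (adjusted p = 0.747). The test of the difference between courses gave an unadjusted p of 0.0541. Over both courses Sp5 passed with a period of 150 min (adjusted p = 0.00156) or 180 min (0.000649), with a quadratic time term (0.000792), with DESeq2 (0.0362), and without any 1 of 4 Ex4 libraries, at 155 (0.0398), 170 (0.0323), 327 (0.0451) or 405 min (0.00457). Its own period was 166 min (148 to 196).

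Rnf43 and Znrf3 are transmembrane ubiquitin ligases that clear Frizzled receptors from the surface and are held back by R-spondins. Rnf43 (mm10 chr11:87662722-87735539) ran from 5.70 over 7.44 to 8.76 CPM in Ex4 and from 4.04 over 5.13 to 5.95 CPM in Ex5, on 73 to 229 reads per library. Its fitted swing was the widest of the 10, 1.28-fold (log2 0.35 ± 0.09) with the peak 50.7 ± 5.12 min before Hes7, and missed the threshold (adjusted p = 0.0595).
In Ex4 Rnf43 stood at 5.73 CPM near the first Hes7 peak, at 8.75 at the trough and at 5.76 near the second peak. In Ex5 the libraries nearest trough, peak, trough and peak held 5.725, 5.16, 4.31 and 4.61 CPM, so the first trough was above both peaks and the second below both. The libraries beside that second trough, at 285 and 325 min, held 5.95 and 5.93 CPM. Hes7 itself was lower in these, at 208.2 and 186.4 CPM, than in the library of 305 min nearest the fitted trough, at 225.7 CPM. Rnf43 passed with a quadratic time term (adjusted p = 0.0264), with DESeq2 (0.0294), and without the Ex4 library of 155 min (0.00481) or 405 min (0.0457) or the Ex5 library of 285 min (0.0476) or 305 min (0.0145). Znrf3 (mm10 chr11:5276324-5444847) ran from 22.4 over 25.5 to 28.2 CPM in Ex4 and from 23.3 over 26.1 to 29.5 CPM in Ex5. Its slope and its level difference between courses were the smallest of the 10, and its fitted swing was 1.07-fold (adjusted p = 0.463).

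The Dishevelled-binding members and Lef1 did not pass the rhythm test. Nkd1 and Nkd2, homologues of the fly gene naked cuticle, gave 1.095-fold (adjusted p = 0.288) and 1.11-fold (0.247), with fitted peaks 2.78 ± 7.83 and 13.8 ± 7.10 min before Hes7. Dact1 gave 1.07-fold (0.570) and Lef1, one of the TCF/LEF factors themselves, 1.04-fold (0.536). The fitted peaks lay within 21.4 min of the Hes7 peak for these 4 and 38.9 to 66.0 min away from it for the other 6. Only Axin2, Sp8 and Tnfrsf19 passed the test, so the peak times of the others are uncertain and do not establish groups. Dact1, for example, was fitted at -66.6 ± 25.6 min in Ex4 and at -16.3 ± 6.09 min in Ex5.

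**Figure D1:**
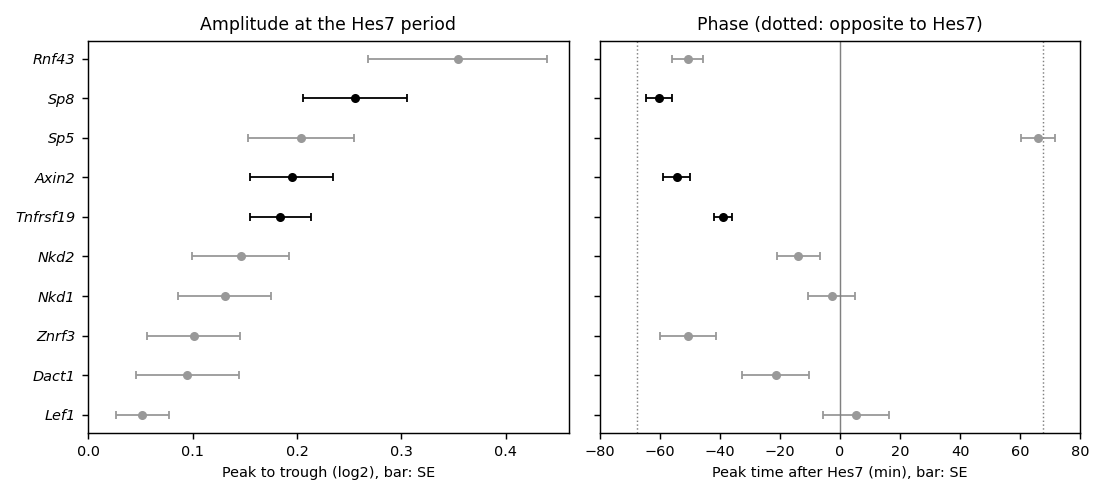
Peak-to-trough difference on the log2 scale (left) and peak time in minutes after the Hes7 peak (right) for each of the 10 members, with bars of 1 SE from the fit over 32 libraries and dotted lines opposite to Hes7. Axin2, Sp8 and Tnfrsf19, in black, passed the test and peak 38.9 to 60.3 min before Hes7.

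**Figure D2:**
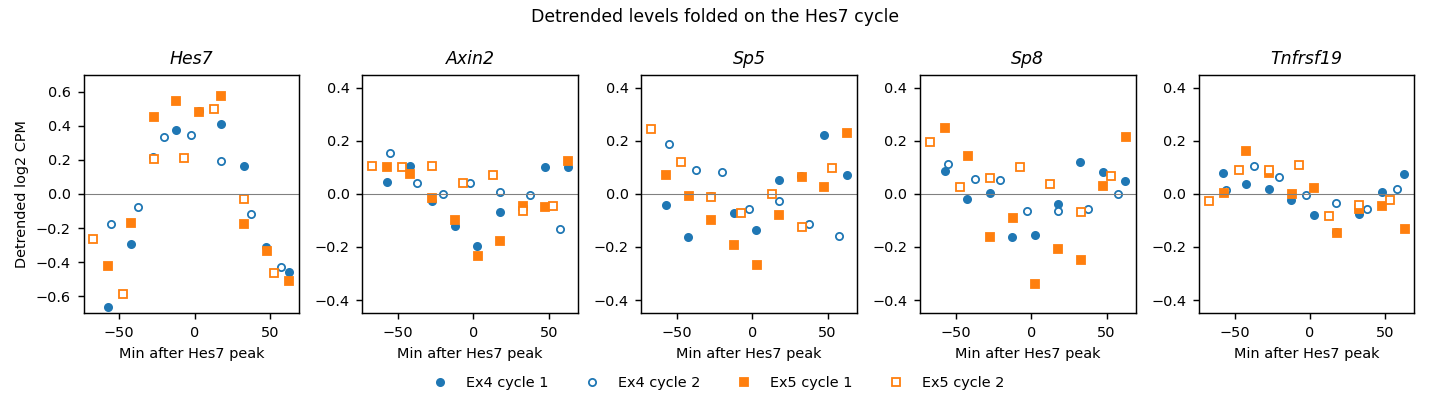
Log2 CPM after removal of each course's level and line (y axis) against minutes from the nearest Hes7 peak (x axis) for Hes7, Axin2, Sp5, Sp8 and Tnfrsf19; each point is 1 library, with filled symbols for the first cycle and open symbols for the second. The low Axin2 points near the Hes7 peak belong to the first cycle, and the Hes7 panel has a wider y axis.

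No member passed the test of a rhythm difference between courses (0 of 10, and 2, Tnfrsf19 and Dact1, at an unadjusted p under 0.05). Among all genes 0% passed and 5.47% did so unadjusted, and DESeq2 also called 0 genes. Fitted separately, Ex4 gave 0 of 10 beside 0.34% of all genes, and 4 of 10 beside 11.5% at an unadjusted p under 0.05. Ex5 gave 2 of 10, Sp5 and Tnfrsf19, beside 0.442% of all genes, and 5 of 10 beside 7.25% unadjusted.
Other measures also varied with this phase, as fitted without a test. The summed endoderm list, of which Cxcr4 gave most and the defining markers Sox17 and Gata6 were under 1 CPM, swung by 0.385 on the log2 scale at -65.0 min, between 26.45 and 52.7 CPM in Ex4 and 28.4 and 51.7 CPM in Ex5. The anterior PSM and somite list swung by 0.232 at 2.03 min (residual SD 0.152), the PSM list, which holds Hes7, by 0.154 at -6.87 min (0.0463), and the RNA quality and stress list by 0.147 at -22.3 min (0.161). The lateral, intermediate and vascular mesoderm list swung by 0.138 at 43.4 min (0.226), the epiblast list by 0.0337 and the neural list by 0.0262. The library totals swung by 0.101 at -28.0 min, within their residual SD of 0.187. Their part in the members' rhythms was not tested.

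Along the sampled minutes, the mean slope of the 2 courses passed its test for 7 of 10 members, beside 53.3% of all genes. Nkd2, Dact1, Nkd1, Tnfrsf19 and Lef1 rose (5 of 10), beside 26.8% of all genes that rose, and Sp5 and Sp8 fell (2 of 10), beside 26.6% that fell. The median slope was 0.07 log2 units per 100 min over the members and -0.0016 over all genes. Axin2, Znrf3 and Rnf43 gave slopes of 0.03, 0.02 and 0.05 that did not pass (adjusted p = 0.260, 0.521 and 0.301).

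Nkd2 (mm10 chr13:73818534-73847631) ran from 10.1 CPM at 155 min over a median of 12.8 to 17.1 CPM at 385 min in Ex4. In Ex5 it ran from 11.5 CPM at 180 min over a median of 16.2 to 26.5 CPM at 425 min. The courses overlapped at the early times, and the Ex5 libraries from 305 min on were above every Ex4 library. Nkd2 rose by 0.37 ± 0.02 log2 units per 100 min (adjusted p = 2.02e-16, edgeR's quasi-likelihood test), the steepest slope of the 10, with 0.28 in Ex4 and 0.47 in Ex5.

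Nkd1 (mm10 chr8:88521354-88594884) ran from 75.8 over 97.4 to 119 CPM in Ex4 and from 71.7 over 87.0 to 105 CPM in Ex5, with most of both ranges shared. It rose by 0.19 ± 0.02 (adjusted p = 2.08e-09). Its slope was 0.26 in Ex4 and 0.13 in Ex5, a difference that missed the threshold (-0.11, adjusted p = 0.0591). That difference passed with quadratic time (adjusted p = 0.0154), with DESeq2 (0.0471), and without the Ex4 library of 405 min (0.0211) or the Ex5 library of 195 (0.0300), 385 (0.0487) or 425 min (0.0179). Nkd1 and Nkd2 both rose over the courses.

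Dact1 (mm10 chr12:71309884-71320107), whose product binds Dishevelled and modulates Wnt signalling, ran from 44.7 over 59.0 to 68.8 CPM in Ex4 and from 51.8 over 72.8 to 84.9 CPM in Ex5. It rose by 0.22 ± 0.02 (adjusted p = 6.38e-10), at about the same rate in each course (0.22 and 0.20). Tnfrsf19 rose by 0.17 ± 0.01 (adjusted p = 3.98e-13), at 0.22 in Ex4 and 0.10 in Ex5. Dact1 was lowest early in both courses and highest late, at 405 min and 365 min.

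Lef1 (mm10 chr3:131110471-131224356) ran from 520 over 607 to 670 CPM in Ex4 and from 664 over 740 to 777 CPM in Ex5. The courses overlapped only through the Ex4 library of 385 min and the Ex5 library of 195 min. Lef1 rose by 0.09 ± 0.01 (adjusted p = 2.38e-07), with 0.13 in Ex4 and 0.04 in Ex5, where it did not pass alone (adjusted p = 0.0823).

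Fitted apart, Ex4 had 5 members that rose and 0 that fell, beside 31.8% of all genes (17% up and 14.8% down). Ex5 had 4 that rose and 2 that fell, beside 47% of all genes (23.1% up and 23.8% down). The 2 falling members passed in Ex5 and not in Ex4, a difference that passed its own test for Sp8 and not for Sp5 (adjusted p = 0.151). Sp5 changed by -0.07 ± 0.02 per 100 min (adjusted p = 0.0196), with -0.02 in Ex4 (adjusted p = 0.709) and -0.11 in Ex5 (0.00131). Sp8 changed by -0.06 ± 0.02 (adjusted p = 0.0225), with -0.0028 in Ex4 (0.945) and -0.12 in Ex5 (0.00857). Both slopes rested on end libraries: without the last Ex4 library (405 min) the adjusted p was 0.116 for Sp5 and 0.0681 for Sp8, without the first Ex5 library (165 min) 0.0742 and 0.0797, and without the first 2 Ex5 libraries 0.120 and 0.266. Without the last Ex4 library Axin2 passed, with 0.05 (adjusted p = 0.0196).

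**Figure D3:**
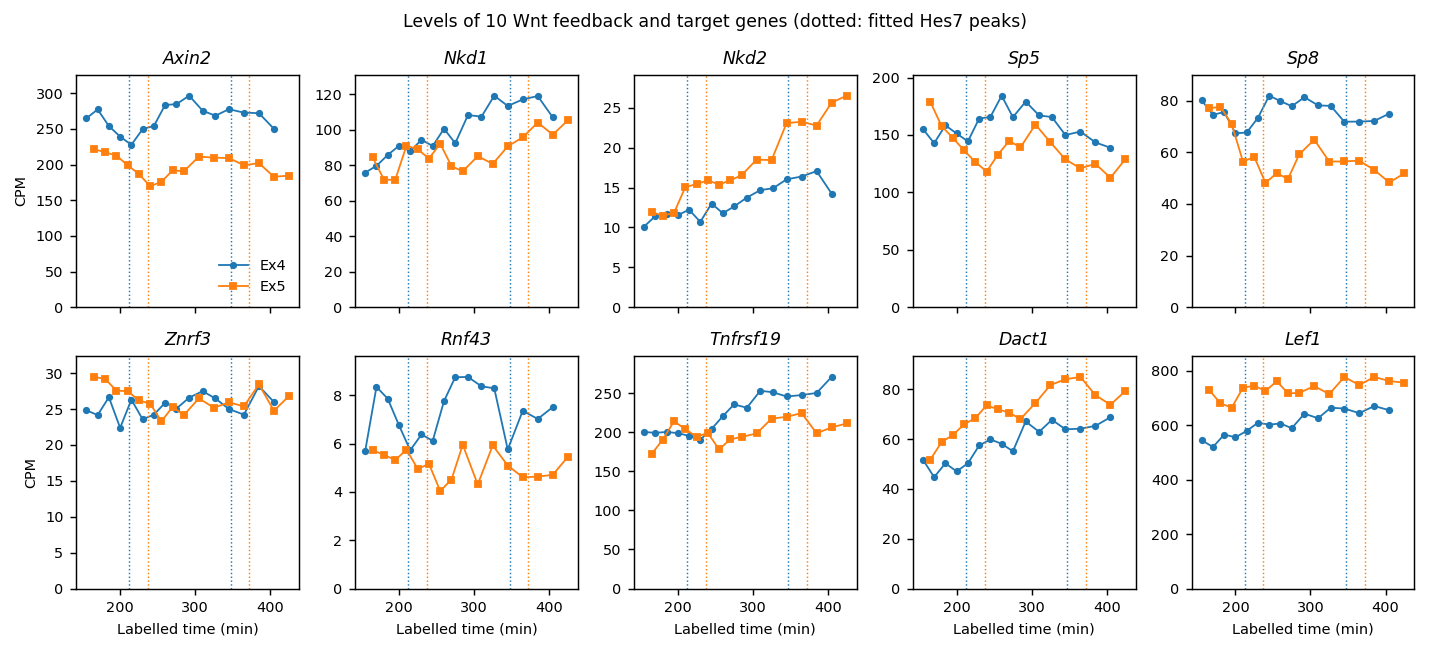
CPM of each of the 10 members (y axis from 0, own scale per panel) against labelled time in minutes (x axis), 1 point per library, with Ex4 as blue circles, Ex5 as orange squares and the fitted Hes7 peaks as dotted lines. Axin2 has no Ex5 value above its lowest Ex4 value, and Nkd2 ends at 26.5 CPM in Ex5.

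Slopes differed between the courses for 4 of 10 members, beside 16.1% of all genes: Nkd2 rose faster in Ex5, and Sp8, Tnfrsf19 and Lef1 had lower slopes there. Of all genes 7.03% had a higher and 9.06% a lower slope in Ex5. The median difference was -0.09 for the members and 0.00068 for all genes. The call for Sp8 was lost without the Ex5 library of 165 min (adjusted p = 0.0525) and without that and the next (0.192), and without the last Ex4 library 7 members were called.

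**Figure D4:**
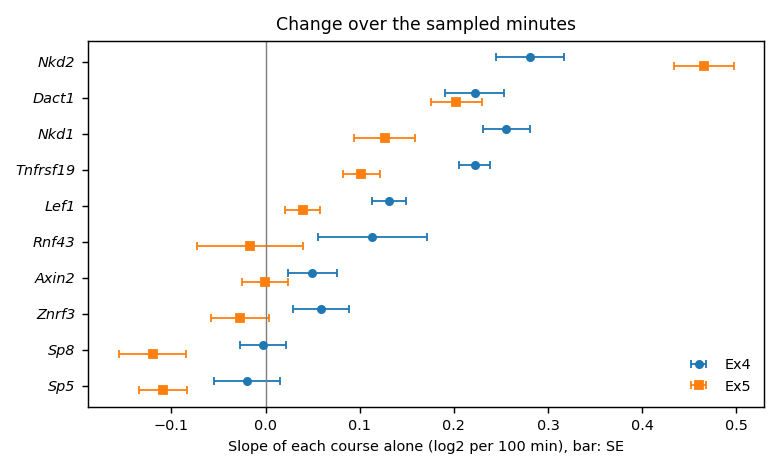
Slope in log2 units per 100 min for each of the 10 members in Ex4 and Ex5, with error bars of 1 SE from the fit within each course. Nkd2 is at 0.28 and 0.47 and Sp8 at -0.0028 and -0.12.

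Levels at the middle of the courses (285 min) differed for 9 of 10 members, beside 55.1% of all genes. Of these, 6 were lower in Ex5, beside 27.7% of all genes. Rnf43 differed by -0.53 (adjusted p = 8.04e-10, edgeR's quasi-likelihood test), Axin2 by -0.43 ± 0.03 (1.25e-16) and Sp8 by -0.38 (6.89e-12) on the log2 scale. Nkd1 and Sp5 differed by -0.21 each and Tnfrsf19 by -0.18. The other 3 were higher in Ex5, beside 27.4% of all genes: Nkd2 by 0.37 (2.56e-12), Dact1 by 0.27 (1.35e-08) and Lef1 by 0.26 (2.20e-15). For Znrf3 the estimate was 0.04 (adjusted p = 0.248). Dishes share a course, so these p-values measure the spread between libraries and not that between repeated courses. The same holds for the slope differences. The scaffold Axin2 was lower in the course in which the TCF/LEF factor Lef1 was higher.
The median level difference was -0.20 over the members and -0.0021 over all genes. Markers of other cells moved with the course as well. The summed neural list was lower in Ex5 by 0.73, at 44.7 to 56.0 CPM in Ex4 and 27.6 to 35.4 in Ex5, with Neurog2 and Olig2 under 1 CPM. Most of this was Sox2, at means of 28.4 CPM in Ex4 and 12.5 in Ex5. Sox3 (7.94 and 4.88) and Sox1 (2.77 and 1.63) were lower too, while Pax6 was nearly level (11.8 and 11.5). The epiblast list was lower by 0.44 and had slopes of -0.53 in Ex4 and -0.61 in Ex5 per 100 min, between 76.3 and 184 CPM in the first and 45.9 and 134 CPM in the second, with Nanog, Fgf5, Otx2 and Utf1 under 1 CPM. The lateral, intermediate and vascular mesoderm list, at 4.51 to 7.28 CPM in Ex4 and 2.73 to 8.85 CPM in Ex5, was lower by 0.421, with slopes of -0.0568 and -0.472, and Foxf1, Hand1, Hand2, Osr1 and Gata4 were under 1 CPM. The endoderm list differed by -0.00287 and had slopes of 0.353 and 0.246, and the anterior PSM and somite list differed by 0.151 and had slopes of 0.104 and 0.219. The PSM list differed by 0.183, with slopes of 0.0606 and -0.00812. Its genes went both ways in mean CPM from Ex4 to Ex5. T (659 and 563), Cdx2 (472 and 424), Wnt3a (202 and 160) and Fgf8 (71.7 and 66.8) were lower in Ex5. Dll1 (722 and 983), Tbx6 (440 and 565), Msgn1 (59.6 and 104), Dll3, Hes7 and Rspo3 were higher. These sums and means were not tested here. Their part in the members' levels and slopes was not tested.

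Per kilobase of exon, which allows genes to be compared, the order in Ex4 was Sp5 (75.2 CPM per kb), Lef1 (69.2), Axin2 (48.3), Tnfrsf19 (47.4), Nkd1 (21.8), Sp8 (16.5), Dact1 (15.5), Znrf3 (3.22), Nkd2 (2.75) and Rnf43 (1.11). In Ex5 it was Lef1 (83.6), Sp5 (65.5), Tnfrsf19 (42.4), Axin2 (35.9), Nkd1 (19.2), Dact1 (19.1), Sp8 (12.85), Nkd2 (3.73), Znrf3 (3.34) and Rnf43 (0.779). These are means over the 16 libraries. In both courses the ranges over libraries overlapped between neighbours within the pair Sp5 and Lef1, the pair Axin2 and Tnfrsf19, the set of Nkd1, Sp8 and Dact1, and the pair Znrf3 and Nkd2, and did not overlap between neighbours at the steps from one of these sets to the next or to Rnf43.

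**Figure D5:**
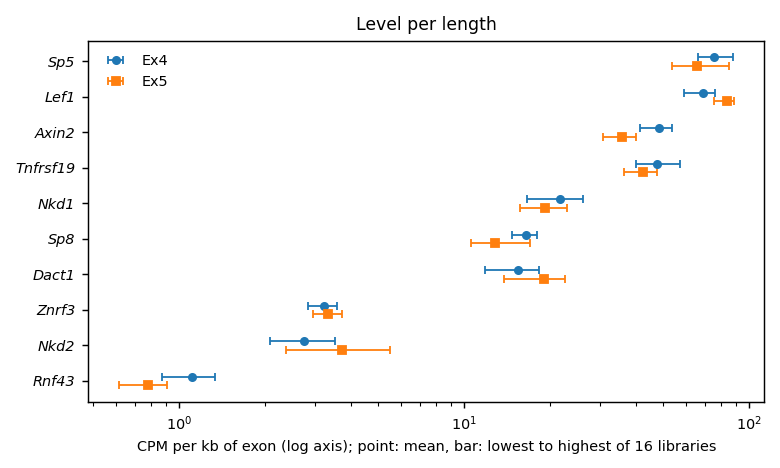
CPM per kilobase of exon on a log axis for the 10 members in Ex4 and Ex5, with a point at the mean and a bar from the lowest to the highest of 16 libraries. Sp5 and Lef1 lie highest, at means of 65.5 to 83.6, and Rnf43 lowest.

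After removal of level and line, members were compared with each other over the 32 libraries, which share the dishes, the depth and, in part, the clock. Of 45 pairs, 13 had a Pearson r over 0.3 and 1 had one under -0.3, Tnfrsf19 with Lef1 at -0.403, and the median was 0.0925. Axin2, Sp8 and Sp5 were alike in all 3 pairings, with r of 0.752 for Axin2 and Sp8 (0.627 in Ex4 and 0.844 in Ex5), 0.667 for Sp5 and Sp8, and 0.649 for Axin2 and Sp5. Nkd1 and Lef1 gave 0.739 (0.654 and 0.802), and Nkd1 and Nkd2 gave 0.487.

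Among 11524 named genes, the profiles most like Axin2 were those of Zfp703 (0.859), Zfp608 (0.812) and Foxb1 (0.784). Zfp703 was also nearest to Sp8 (0.808, then Cited2 at 0.779 and Axin2 at 0.752), and Foxb1 nearest to Sp5 (0.844, then Zfp703 at 0.798 and Fzd1 at 0.754). Tnfrsf19 was most like Apcdd1 (0.721), a membrane inhibitor of Wnt signalling, Epha4 (0.708) and Zeb2 (0.698). Nkd1 was most like Fbxl19 (0.856), and Lef1 most like Zfpm1 (0.831), Lor (0.820) and the receptor gene Fzd7 (0.808). The nearest values were 0.754 for Dact1 (with Arhgap28), 0.716 for Nkd2 (with Rab11fip1) and 0.679 for Rnf43 (with Mms19).

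The rest of the pathway was taken from lists by role. Their counts stand beside 26.8% of all tested genes that rose, 26.6% that fell and 1.32% that cycled, that is, passed the rhythm test. Rises, falls and slopes are those of the mean of the 2 courses, and the courses can differ. Of 5 tested Wnt ligands, 4 fell and 0 passed the rhythm test, by edgeR's quasi-likelihood test. Wnt3a came closest, at 1.12-fold with its fitted peak 1.28 min after Hes7 (adjusted p = 0.0729). Wnt8a fell by 0.43, Wnt3a by 0.25, Wnt6 by 0.22 and Wnt5b by 0.19 log2 units per 100 min. By the same test the Ex5 slope was lower than that of Ex4 for Wnt6 (difference -0.496, adjusted p = 0.000251), Wnt3a (-0.216, 8.25e-05) and Wnt5b (-0.21, 2.36e-05). It was higher for Wnt8a (0.136, 0.0306). The fall of Wnt6 thus lay in Ex5 only. On the means of both courses, the rising members rose while these ligand transcripts fell. Of 17 receptors and R-spondins 5 rose and 5 fell, among them Rspo4 (-0.55), Fzd7 (0.28), Rspo1 (-0.24) and Fzd2 (0.20). Rspo4 and Rspo1 had means of only 1.73 and 1.96 CPM, while the slope of Rspo3, at 245 CPM, did not pass (-0.038, adjusted p = 0.0949). Only the receptor Fzd1 passed the rhythm test, at 1.24-fold with its peak 63.8 ± 2.69 min before Hes7 (adjusted p = 1.51e-06), a phase near those of Axin2 and Sp8.

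Of the 16 genes of signal transduction and the destruction complex, 0 cycled, 4 rose and 2 fell, with the widest slopes for Gsk3a (0.14), Amer1 (0.12), Csnk1a1 (-0.09) and Dvl2 (0.09). Ctnnb1, which encodes β-catenin, stood at a mean of 1193 CPM with a peak-to-trough fold of 1.009. Of 11 nuclear partners 5 rose, 2 fell and 2 cycled, the corepressors Tle1 (1.23-fold, 15.7 min after Hes7) and Tle3 (1.13-fold, 10.3 min before). Tcf7l1, a relative of Lef1 that mainly represses, rose by 0.25, Pygo1 by 0.18, and Tle4 and Tle3 by 0.11 and 0.10. The Ex5 slope was lower for Tle4 (difference -0.201, adjusted p = 2.26e-06, edgeR's quasi-likelihood test) and Tle3 (-0.153, 0.000201), whose rise thus lay mostly in Ex4. It was higher for Tcf7l1 (0.145, 0.0318), and for Pygo1 the difference did not pass.

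Of 10 tested secreted and membrane antagonists 6 rose, 3 fell and 3 cycled. Dkk1, which blocks the Wnt coreceptor, cycled 2.135-fold with its peak 58.2 min after Hes7, Shisa3 1.47-fold at 7.35 min and Apcdd1 1.18-fold at -39.9 min. Sost rose by 0.71 and Shisa3 by 0.41, while Dkk1 changed by -0.66 and Notum by -0.32. Dkk1, at a mean of 4.435 CPM, and Axin2 thus both had fitted peaks in the part of the cycle opposite to Hes7, though the signs of their minutes differ.

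Of 11 tested other Wnt targets 3 rose, 6 fell and 5 cycled. Msgn1, a regulator of PSM identity, cycled 1.19-fold at -57.3 min, near Axin2, while Id2 (1.41-fold at -16.2 min), Dll1 (1.17-fold at -16.2 min), Cdx2 (1.15-fold at -6.64 min) and Cyp26a1 (1.21-fold at 6.28 min) peaked nearer to Hes7. Cdx1 changed by -1.24 and Fgf8 by -0.13, and Id2 rose by 0.36 and Tbx6 by 0.18. The Ex5 slope was lower for T (difference -0.20), Msgn1 (-0.28), Cdx2 (-0.12) and Dll1 (-0.15), with adjusted p at most 0.00141 by edgeR's quasi-likelihood test. The falls of T, Msgn1 and Cdx2 thus lay mainly in Ex5 and the rise of Dll1 in Ex4. For Cdx1, Ccnd1, Fgf8, Tbx6 and Id2 the difference did not pass. Of all tested genes, 0.348% cycled with a peak in the opposite part of the cycle to Hes7.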

How the data were processed

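The labels' protocols describe stranded mRNA libraries from 200 ng of total RNA of 32 dishes. Values in the deposited table are raw counts of reads, 1 row per gene symbol. The submitters' processing notes name bcl2fastq 2.17.1.14, cutadapt 1.14, HISAT2 2.1.0, HTSeq 0.6.1 and mm10. The annotation used for counting is not given in the sources used here. Columns were matched to samples through the labels, with 0 left unused.

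CPM with TMM scaling came from edgeR 4.0.16 (R 4.3.3). Genes reaching 1 CPM in 16 or more libraries (11772) entered edgeR's quasi-likelihood test: a level and a slope per course (time centred at 285 min), shared cosine and sine of the Hes7 phase, and Benjamini-Hochberg adjustment at 0.05. Log2 CPM used a prior count of 0.5. Phase errors leave out that of the Hes7 clock. Periods were searched from 90 to 240 min. The scripts were tested on simulated data. Dishes share a course, so p-values measure only the spread between these libraries, which may be technical.

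Named genes were the members, Hes7, pathway genes past the rhythm test, up to 4 per role with the widest called slope, and the 3 most correlated genes per member, given in part; the likeness of Znrf3 is not reported here. Alternatives were other scalings and filters, quadratic time, other periods, no line or no rhythm, each course alone, a block by time point number, DESeq2 1.42.0, and each library left out. The members and lists were chosen with earlier results of these data known.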

Additional observations from a re-analysis of the deposited data

Results flagged for a closer look

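Of the members' results, 4 were singled out because the test of the difference between the courses itself passed (edgeR's quasi-likelihood test, adjusted over all tested genes; 16 libraries per course). The slope of Nkd2 in log2 units per 100 min was higher in Ex5 than in Ex4 by 0.19 (adjusted p = 0.00160). That of Sp8 differed by -0.15 (0.0198), that of Tnfrsf19 by -0.13 (0.000355) and that of Lef1 by -0.0864 (0.00837). The courses began 10 min apart in labelled time, and their Hes7 peaks lay 24.8 min apart. The part of that offset in the slopes was not tested.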

How the results depend on the processing

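Over 14 alternatives, 414 of 450 results for single members kept their direction and their side of the threshold. The 10 that changed sign concerned values that had not passed: the Znrf3 level (-0.028) and the Dact1 slope difference (0.00318) with quadratic time; the cycles of Dact1 (-0.069) and Lef1 (-0.00303) at 180 min, and of Dact1 without the line (-0.0298) and in Ex4 alone (-0.0289), where the sign means a peak on the other side of the cycle; the slopes of Axin2 (-0.000954), Znrf3 (-0.027) and Rnf43 (-0.0169) in Ex5 alone; and that of Axin2 without rhythm terms (-0.000356). The cause was not tested. Rhythmic members numbered 5 with quadratic time or DESeq2, 1 at 120 min or without the line, and 0 in Ex4 alone. Rhythmic genes numbered 62 without the line, and 40 in Ex4 alone and 52 in Ex5 alone, each with 16 of the 32 libraries; changing genes numbered 3747 in Ex4 alone. Genes with a slope difference numbered 3081 with quadratic time and 1227 without the Ex5 libraries of 165 and 180 min, a choice made after seeing the data. Genes with a rhythm difference numbered 2 without a filter, 3 at 180 min and 1 without those libraries. With each library left out in turn, rhythmic genes numbered 124 to 233 (233 without the Ex5 library of 305 min), rhythmic members 3 to 5 (5 without the Ex4 library of 155 or 405 min), members with a trend 5 to 7, with a level difference 9 and with a slope difference 3 to 7 (7 without the Ex4 library of 405 min). Same-numbered libraries of the courses share only a time point number: deviations from the fitted curves correlated at -0.159 to 0.145 (median -0.0241), and with that number as a replicate block 6052 genes, against 6485, and the same number of members, 9, differed in level. Counts of 73 to 229 limit Rnf43, and 1.85 to 1.93 cycles limit any period.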
